A study of Homo sapiens with 2 samples.

Results

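Genes of the BCL2 family, caspases, apoptosis inhibitors and the adaptors of death receptor signalling were compared between 2 one-colour arrays of SW620, a long-established cell line from a human colon carcinoma. The control array was hybridised with RNA of cells that contained control lentiviruses, and the CDR1AS array with RNA of CDR1AS-expressing cells. CDR1AS is a circular RNA that binds the microRNA miR-7 at many sites. Both cultures were grown in DMEM with fetal bovine serum under normal culture, and the labels do not say whether either is a pool or 1 clone. Members were chosen by gene symbol in the platform's probe annotation, as 41 named genes among 18638 genes with a probe. Of these, 38 had a probe (46 probes in all) and 35 were above background on both arrays. BCL2A1, BCL2L14 and CASP5 were below background on both arrays, and expression of BAD, DIABLO and RIPK1 was not analysed here, since the probe annotation used pairs no probe with them. Each group was 1 array, so no difference below has a replicate error, a test or a p-value, and each is a difference between 2 arrays.

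Apoptosis is controlled at the mitochondrion by the BCL2 family. Pro-survival members such as BCL-XL and MCL1 hold the pore-forming effectors BAX and BAK in check, and BH3-only proteins such as NOXA, PUMA and BIM relieve that restraint. Cytochrome c released from mitochondria then assembles with APAF1 and caspase-9 into the apoptosome, while death receptors activate caspase-8 and caspase-10 through FADD. Inflammatory caspases serve another form of death, pyroptosis, and RIPK3 with MLKL carry out necroptosis.

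The 30 bases around the letters TGACGT, the half-site of the cAMP response element bound by ATF and CREB factors, are shown for 3 of the members that hold them, because PMAIP1, the gene with the highest ratio, is among them. The motif was searched on both strands of the 250 bases before each gene's start, in RefSeq promoters of GRCh38.p14, of which 33 of the 41 members had an entry (8, CASP1 among them, had none). Capitals mark the motif, which stands as ACGTCA where it lies on the opposite strand, and each sequence runs 5′ to 3′ on the gene's strand.
PMAIP1: tctagtttccctACGTCAccagggaagttc
MLKL: aaggcttggtacTGACGTgtacagcgtagt
BAD: gacctacccgagTGACGTtccgagaggtga
The windows lie at chr18:59899928-59899957 (plus strand), chr16:74700974-74701003 (minus) and chr11:64284741-64284770 (minus). In PMAIP1 the motif spans bases 56 to 51 before the start.

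The half-site is common: 5 of 33 member promoters (15.2%) held it, as did 2026 of 27305 promoters of that length (7.42%). Of the genes shown, the log2 ratio of the CDR1AS array over the control array was 2.41 for PMAIP1 and −0.62 for MLKL. The other members with the half-site, BIRC2 and CYCS, were at −0.01 and −0.04. The full element TGACGTCA, which contains the half-site, was in 0 of the 33 member promoters and in 1.77% of all promoters. The core of the element bound by CHOP with ATF4 (TGATGNAA) was in 3 of the 33, those of BCL2A1, CASP5 and HRK, against 3.19% of all. The interferon-stimulated response element core (GAAANNGAA) was in those of BCL2A1, BIRC2 and CASP5, against 7.06% of all. The gamma-activated site (TTCNNNGAA) was in those of BCL2A1, CASP5 and CASP8, against 6.78% of all, and the p53 half-site was in that of BAK1, against 5.53% of all. A match of letters is a description, not a binding site.

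Spot intensities are medians of the Cy5 channel in scanner units. A spot counted as above background over the mean of the blank spots plus 2 SD, a limit of 69.1 in the control and 72.1 in the CDR1AS hybridisation. Ratios are log2 differences after normexp correction with an offset of 50 and quantile normalization, so folds of dim genes are compressed towards 1. The median gene probe was brighter on the CDR1AS array (109 against 103), so a gene with equal spots has a ratio slightly below 0. As a measure of technical spread, the SD of log2 intensity over the 24 spots of a positive control was between 0.10 and 0.24 within an array. Between the arrays, before normalization, the median spot of one positive control was 7444 (control) and 10962 (CDR1AS). That of the other was 40354 and 43384.5. The within-array SD does not cover such a shift. The epithelial label fits part of its markers: KRT18, EPCAM and VIL1 were over 5 times the limit on both arrays, CDH1 was at 4.17 and 4.44 times the limit, and CDX2 at 2.46 and 1.51 times. LGALS4 was at 1.77 and 1.67 times, KRT20 and CDX1 stayed under 1.3 times the limit, and CDH17 was below background on the control array. Of 6 leukocyte markers 5 were above background on each array, none over 5 times the limit. LYZ was at 2.91 and 2.82 times, CD14 at 1.76 and 1.66 times, and PTPRC was below background on both. Of 7 fibroblast markers 4 were above background on each array, with COL1A1, COL1A2 and COL3A1 below it on both. DCN was at 3.41 and 3.37 times the limit, LUM at 2.71 and 2.25, and PDGFRB at 2.19 and 2.34. CDX2 was thus dimmer than all of these on the CDR1AS array, and on the control array brighter only than PDGFRB. These are different probes, so such a ranking does not compare levels of the genes. Of 5 endothelial markers 2 were above background in the control and 4 in the CDR1AS hybridisation, none over 5 times the limit.

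The median ratio of the measured members was close to that of all genes, and 2 genes stood out. PMAIP1, which encodes the BH3-only protein NOXA, was 5.32-fold higher on the CDR1AS array, and CASP1, which encodes the inflammatory caspase-1, was 2.76-fold lower. In RNA of whole cultures, fewer cells with a transcript and less of it per cell cannot be told apart. They were the only measured members at or past 2-fold, 1 of 35 in each direction, beside 0.755% of all 16685 genes measured on the higher side and 0.575% on the lower side. The median ratio of the 35 genes was −0.04, and that of all genes −0.01. Of the 35, 15 had a ratio above 0 and 20 below (42.9% above, against 47.2% of all genes). Of the 35, 13 lay between the quartiles of all genes (−0.10 and 0.09), a smaller share than of all genes. Beyond 0.24, the largest SD of repeated spots, lay 10 of the 35, beside 22.0% of all genes. With the local background column used in the correction, 2 of the 35 were past 2-fold in each direction, against 4.57% of all genes higher and 3.32% lower, and neither PMAIP1 nor CASP1 was among them.

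**Figure D1:**
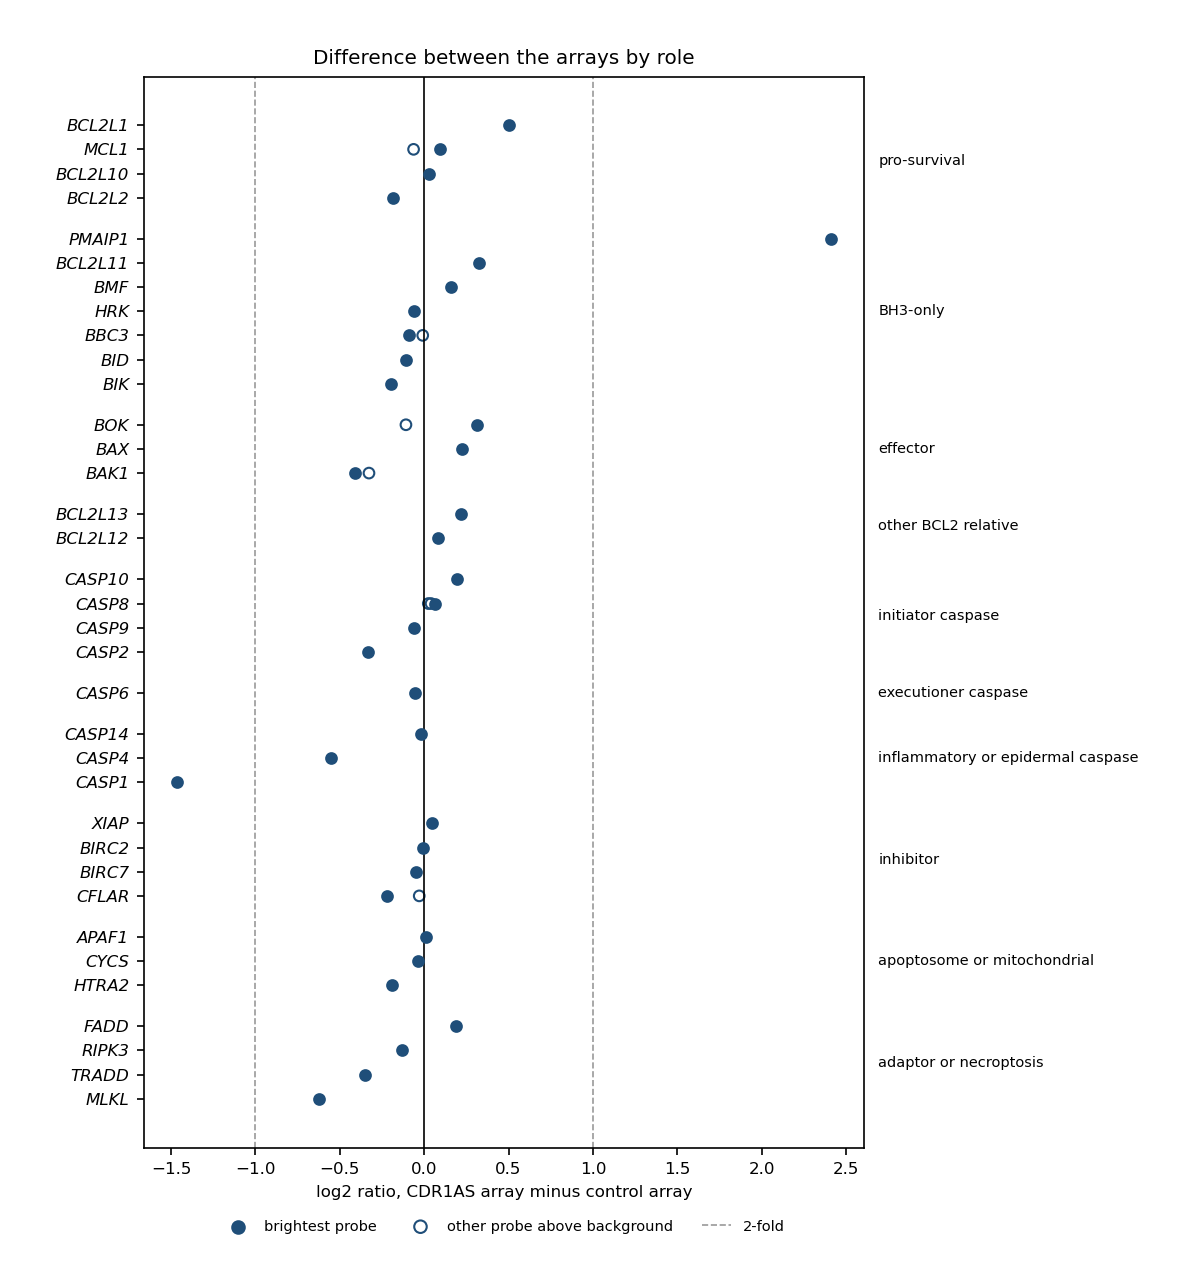
Log2 ratio of the CDR1AS array minus the control array (horizontal axis) for 35 measured genes grouped by role, with the brightest probe filled, other probes above background open and 2-fold marked by dashed lines. PMAIP1 lies at 2.41 and CASP1 at −1.47, and the other genes lie between −0.62 and 0.50.

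Among BH3-only genes, which start the mitochondrial pathway, PMAIP1 had a control spot of 284 and a CDR1AS spot of 1539.8. Both were well above the limits, and the ratio of 2.41 was reached or exceeded by 5 of 16685 genes, PMAIP1 included. In the authors' deposited table PMAIP1 went from 104.2 (control) to 672.7 (CDR1AS), a 6.46-fold difference. The local background beside the spot moved with it, from 90.1 to 833, and when that column was used as background the ratio was 0.73, within 2-fold. PMAIP1 had 1 probe, so no other probe repeats this value.

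The other BH3-only genes differed by at most 1.25-fold. BCL2L11, which encodes BIM, had spots of 121 and 159, control array first, and a ratio of 0.32. In the authors' deposited table it was 1.55-fold higher, at 26.4 and 41.0, and its ratio was 0.02 with the local background. BMF, whose product is tied to the cytoskeleton in healthy cells, had spots of 255 and 307 and a ratio of 0.16. BBC3, which encodes PUMA and like PMAIP1 is a known p53 target, had spots of 221 and 225, a ratio of −0.09, and −0.01 at its other probe. BID, which links caspase-8 to mitochondria, gave −0.11 (spots of 871 and 880), and HRK gave −0.06. BIK, a BH3-only gene of the endoplasmic reticulum, was lowest at −0.20, with spots of 1191 and 1132. In the main setting PMAIP1 was the only one of the 7 measured BH3-only genes past 2-fold, beside 1.33% of all genes either way. With the local background BIK was past 2-fold (2.69) and PMAIP1 was not (0.73). The main median of the class was −0.06 (3 above 0, 4 below).

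**Figure D2:**
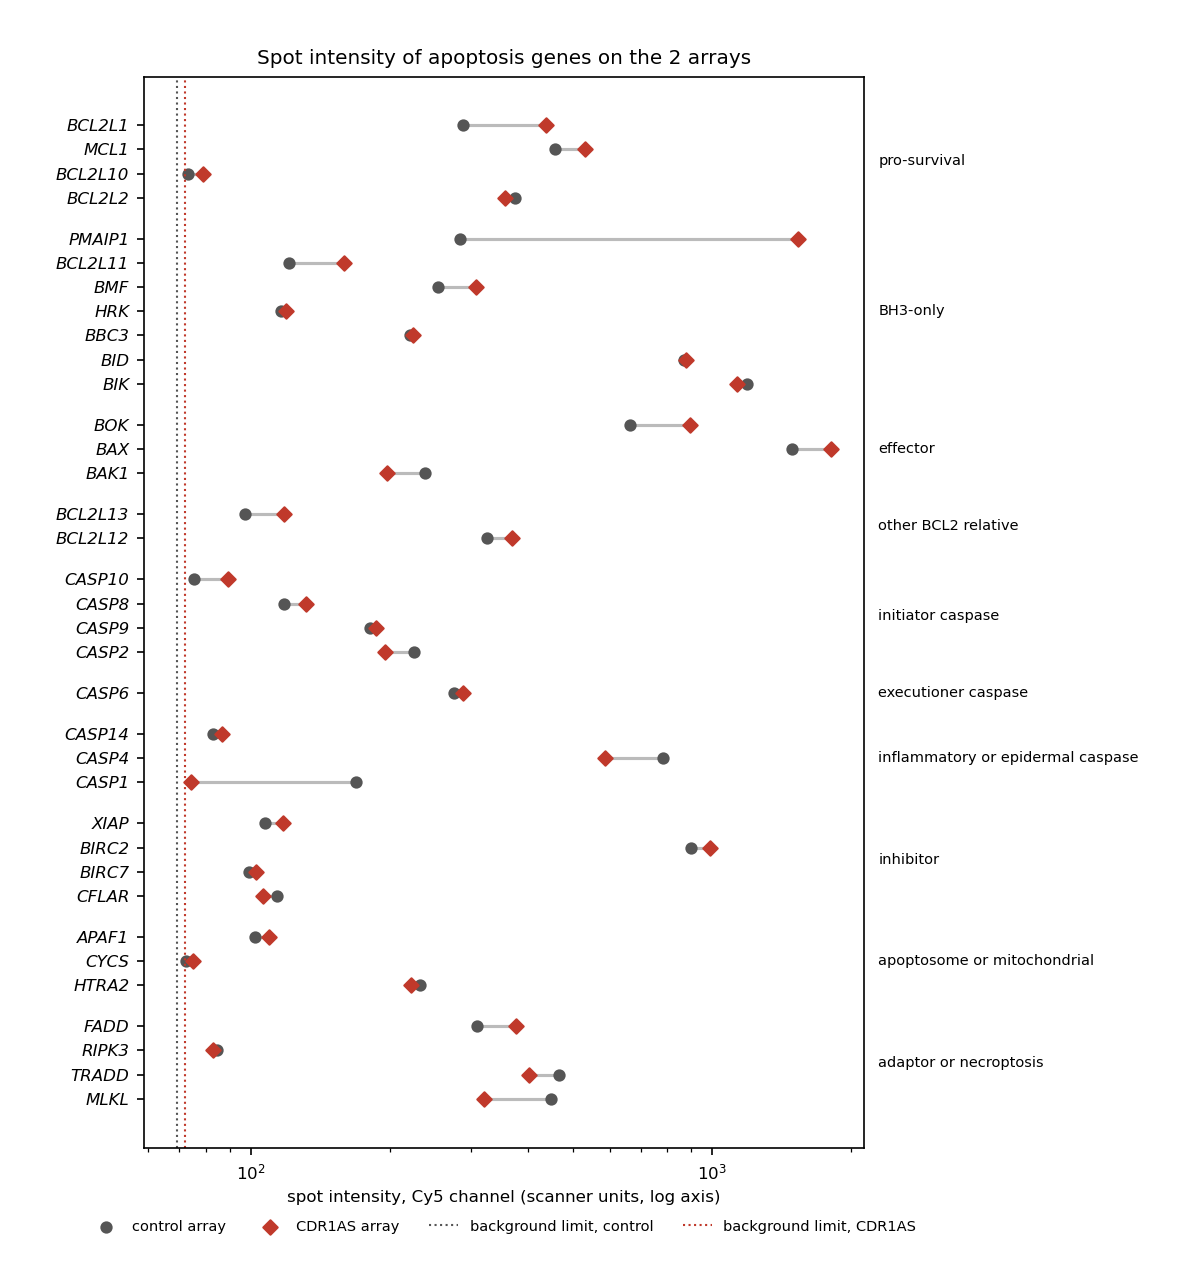
Spot intensity in the Cy5 channel (scanner units, log axis) of each of the 35 genes on the control array (circles) and the CDR1AS array (diamonds), joined by a line, with dotted background limits at 69.1 and 72.1. The longest lines are those of PMAIP1, from 284 to 1539.8, and CASP1, from 169 to 74.3. Levels of different genes come from different probes and are not comparable.

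The pro-survival genes stayed within 1.5-fold. BCL2L1, which encodes BCL-XL, was highest of the 4 measured, with a control spot of 289 and a CDR1AS spot of 436. It was 1.41-fold higher (ratio 0.50), and 1.58-fold in the authors' deposited table, and its ratio was 1.39 with the local background. MCL1, which encodes a pro-survival protein that NOXA binds, had spots of 457 and 530 and a ratio of 0.09, and its other probe gave −0.06. BCL2L2, which encodes BCL-W, was lowest at −0.19 (spots of 374 and 356), and BCL2L10 was close to the limits (73.1 and 78.6) with a ratio of 0.03. With the local background BCL2L2 (0.34) and BCL2L10 (−0.06) had the opposite sign. The median was 0.06.

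The effector genes went different ways. BAX had spots of 1491 and 1814 and a ratio of 0.23. BAK1 was 1.33-fold lower, with spots of 239 and 197 and a ratio of −0.41, and its other probe gave −0.33 (193 and 168). BOK, a relative of BAX and BAK, was at 0.31 by its brightest probe (663 and 896) and −0.11 by its other probe, so its direction depends on the probe. With the local background BAX (−1.08) and BAK1 (0.43) had the opposite sign. Of the other BCL2 relatives, BCL2L13, a mitochondrial outer membrane protein gene, had spots of 97.0 and 118 and a ratio of 0.22, and BCL2L12 had 325 and 369 and a ratio of 0.08.

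Of 4 measured initiator caspases, 0 were at or past 2-fold, beside 1.33% of all genes either way. At that share, a count of 0 among 4 genes says little about the role. CASP8, which acts below death receptors, had ratios of 0.07, 0.02 and 0.04 at its 3 probes, with spots of 118 and 132 at the brightest. CASP10, its close relative, was near the limits, at 75.4 and 89.2, with a ratio of 0.20. In the authors' deposited table CASP10 went from 4.6 to 9.0, which is 1.96-fold. CASP9, the apoptosome caspase, had spots of 181 and 187 (ratio −0.06). With the local background CASP9 was at −0.93 and CASP8 at −0.28. CASP2, a caspase linked to the PIDDosome, was lowest at −0.33, with spots of 226 and 196. The executioner CASP6 had spots of 276 and 289, and a ratio of −0.06, or −0.95 with the local background.

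Of the inflammatory caspase genes, CASP1 was past 2-fold lower, CASP4 was within 2-fold and CASP5 was below background. CASP1, whose product cleaves pro-interleukin-1β and gasdermin D, had a control spot of 169 (limit 69.1) and a CDR1AS spot of 74.3 (limit 72.1). It was thus clearly above background in control cells and at the edge of detection in CDR1AS-expressing cells. Its ratio was −1.47, and 28 of 16685 genes, CASP1 included, were as low or lower. The fold is poorly determined: with an offset of 16 the ratio was −2.39, and the authors' deposited table gave 49.3 and 2.2, a 22.4-fold difference. With the local background, which was 155 beside the control spot, it was −0.33, within 2-fold. CASP4, a sensor of cytosolic lipopolysaccharide, had spots of 782 and 585 and was 1.47-fold lower (−0.55). The epidermal CASP14 was near the limits, with spots of 82.9 and 86.7 (−0.02).

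A list of executioners, pyroptosis genes and caspase substrates had 16 of 18 genes measured. It had 4 above 0 and 12 below, its median was −0.09, and it had 0 at or past 2-fold higher and 1 lower. Over all genes the median was −0.01, with 47.2% above 0, 0.755% past 2-fold higher and 0.575% lower. That gene was PYCARD, which encodes ASC, the adaptor that recruits caspase-1 to inflammasomes. Its spots were 497 and 230, and it was 2.43-fold lower (−1.28), 2.80-fold in the authors' deposited table, and −1.67 with the local background. In the main setting the caspase-1 gene and its adaptor gene were thus both past 2-fold on the lower side. With the local background CASP1 was at −0.33, within 2-fold. The inflammasome sensor genes of the list were within 2-fold: NLRC4 at −0.21, AIM2 at −0.03, and NLRP1 and NLRP3 at −0.02. AIM2 was below the limit on the control array and at it on the CDR1AS array (spots of 67.7 and 72.1). NLRP3 was close to the limits (73.0 and 76.2) and NLRP1 was dim (85.4 and 89.3). Little can thus be read from the ratios of these dim genes.

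Among measured genes in chromosome order, CASP1 lies between CASP4 and CARD16 on chromosome 11. CARD16, which encodes a protein made largely of a caspase-1-like recruitment domain, had spots of 87.7 and 82.3 and a ratio of −0.21. Because these genes resemble each other and the probe sequences were not used here, how far their probes share signal is unknown. The 8 nearest other measured genes ranged from −0.05 to 0.10. The 10 measured genes nearest PMAIP1 on chromosome 18 ranged from −0.57 to 0.18, so no neighbour shared its difference.

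**Figure D3:**
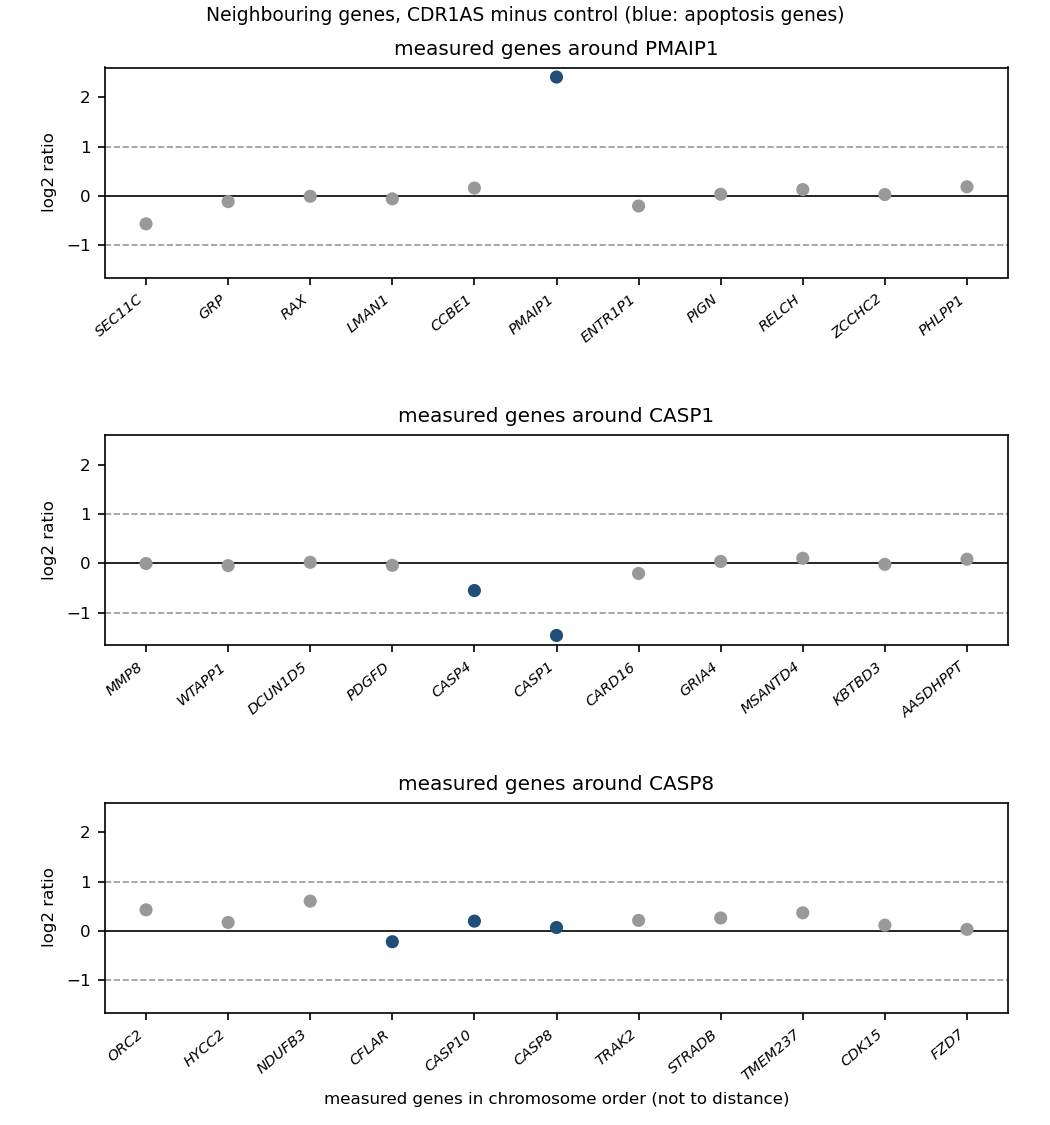
Log2 ratio (CDR1AS minus control) of measured genes in chromosome order, not to distance, around PMAIP1, CASP1 and CASP8, with apoptosis genes in blue and 2-fold dashed. PMAIP1 at 2.41 stands beside genes between −0.57 and 0.18, CASP1 at −1.47 lies next to CASP4 at −0.55, and CFLAR is the only gene below 0 of the 11 around CASP8.

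Among inhibitors, CFLAR, which encodes the caspase-8 inhibitor FLIP, was lowest. Its spots were 114 and 106, its ratio −0.22, and its other probe gave −0.03. CFLAR, CASP10 and CASP8 are neighbours on chromosome 2, within a region whose genes tended to be higher: the 8 nearest other measured genes were all above 0, between 0.03 and 0.60 with a median of 0.24. CASP10 (0.20) and CASP8 (0.07) were above 0 too, and CFLAR was not. The CASP8 ratio was small, with 28.8% of all genes as high or higher. With the local background CASP10 was at −0.07 and CASP8 at −0.28. XIAP, the direct inhibitor of caspases 3, 7 and 9, had spots of 107 and 117 and a ratio of 0.05. BIRC2, the ubiquitin ligase cIAP1, had spots of 901 and 989 (−0.01), and BIRC7, livin, had spots of 99.3 and 103 (−0.05). The median of the 4 inhibitors was −0.03, and 0 were at or past 2-fold, beside 1.33% of all genes either way. With the local background BIRC7 was at −0.29.

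Downstream of mitochondria, APAF1, the scaffold of the apoptosome, had spots of 102 and 109 and a ratio of 0.01. CYCS, which encodes cytochrome c, was close to the limits at 72.3 and 74.9 (−0.04), so little can be read from its probe. HTRA2, a mitochondrial protease that counters IAPs, had spots of 233 and 222 (−0.19), and was at 0.25 with the local background.

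Of 4 measured adaptor and necroptosis genes, 0 were at or past 2-fold, beside 1.33% of all genes either way. A ratio below 0 was found in 3 of them, and in 8800 of 16685 genes. MLKL, which encodes the pore-forming executioner of necroptosis, had a control spot of 448 and a CDR1AS spot of 321. It was 1.54-fold lower (−0.62), 1.58-fold in the authors' deposited table, and −1.44 with the local background. RIPK3, the kinase that activates MLKL, was dim on both arrays, at 84.5 and 82.7, with a ratio of −0.13. TRADD, the adaptor of TNF receptor 1, was 1.27-fold lower (467 and 401, −0.35). FADD, the adaptor of caspase-8, went the other way, with spots of 309 and 377 and a ratio of 0.19. At a limit of 1.5-fold, added after the values were seen, MLKL joined CASP1 on the lower side (2 of 35, against 2.23% of all genes) and PMAIP1 stayed alone on the higher side (1 of 35, against 2.61%).

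**Figure D4:**
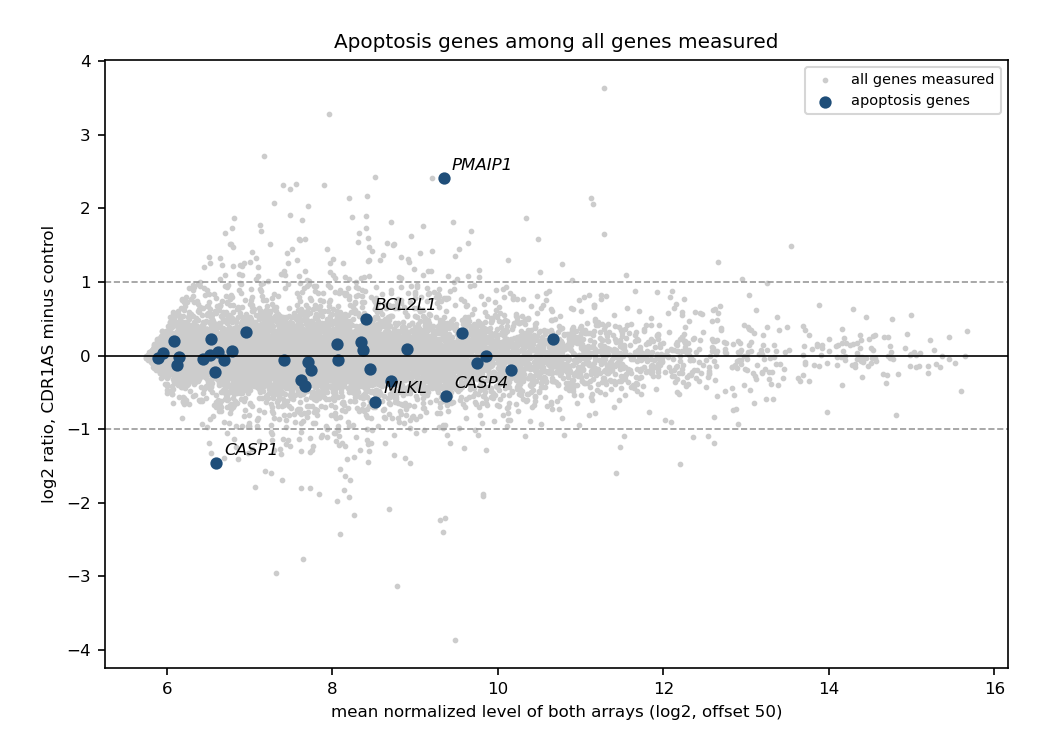
Log2 ratio (CDR1AS minus control) against the mean normalized log2 level of both arrays for 16685 genes (grey) and 35 apoptosis genes (blue), with 2-fold dashed. Most apoptosis genes lie inside the grey band, PMAIP1 (2.41) lies above it, and CASP1 (−1.47) lies at the dim end below it.

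Among the receptors and ligands upstream, 17 of 18 listed genes were measured, 10 above 0 and 7 below. Their median was 0.03, with 1 at or past 2-fold higher (0.755% of all genes) and 0 lower (0.575% of all genes). That gene was FASLG, the ligand of the death receptor FAS. Its spots were 228 and 584, it was 2.45-fold higher (1.29), and its other probe gave 0.99 (158 and 323). Its ratio with the local background was 1.19. Of the further BCL2 and IAP relatives and mitochondrial factors, 19 of 21 were measured, 7 above 0 and 12 below. The median was −0.05, and 0 were at or past 2-fold either way, beside the same shares of all genes.

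Beyond the largest SD of repeated spots, 0.24, lay 10 of the 35 genes, 4 higher (PMAIP1, BCL2L1, BCL2L11 and BOK) and 6 lower (CASP1, MLKL, CASP4, BAK1, TRADD and CASP2), beside 22.0% of all genes. That SD covers spotting and scanning within an array only, not cultures, RNA or labelling. It is the spread of single bright spots before normalization, not of a ratio between 2 arrays, so passing it does not set a gene apart from noise. Of 6 genes with several probes above background, 4 had probes of one sign and 2, BOK and MCL1, had both signs. The probe ratios differed most in BOK, by 0.42. In 12 of the 35 genes both spots were under 2 times the limit, and for these the offset compresses a fold most.

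**Figure D5:**
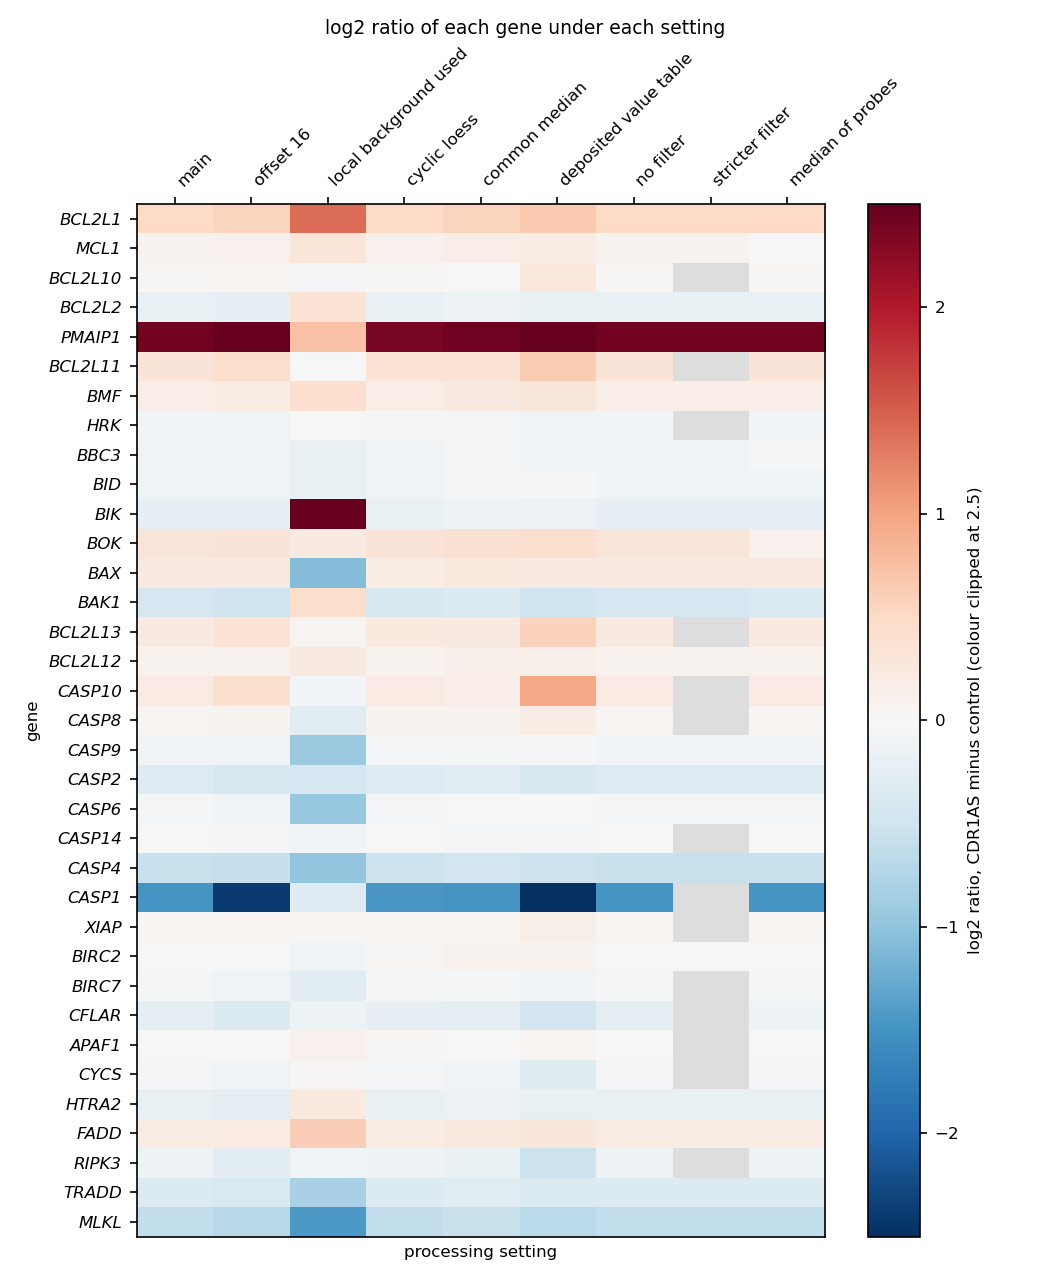
Log2 ratio (CDR1AS minus control, colour, clipped at 2.5) of each of the 35 genes (vertical axis) under each of 9 processing settings (horizontal axis), with grey where a filter leaves a gene out. PMAIP1 is red and CASP1 blue wherever measured, and the column that uses the local background stands apart, with BIK at 2.69 there and −0.20 in the main setting.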

How the data were processed

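Total RNA of 2 SW620 cultures was hybridised to 1 array each, with Cy5 as the label, per the labels. The spot files hold median intensity of spots and of their local background, read at 3 scanner gains, per the file headers. How the gains were joined is not stated. The deposited signal table, tested on its values, is linear with a median of 25 on each array, and values near the blanks are empty. How the authors made it is not stated.

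Intensities were corrected with normexp (offset 50) without the local background column, which rose with the spots (Pearson's r across gene probes on the log scale 0.977 and 0.942), and quantile-normalized in limma 3.58.1 with R 4.3.3. Of 24460 gene probes, 24459 passed the quality flags. Genes took their brightest probe, by mean level, if above background on at least 1 array. Steps were tested on simulated data. With 1 array a group there was no test, and calls were folds of 2. All members are named by role. Values are given in full for members past 2-fold and for the highest and lowest of each role. Other pathway genes were to be named only past 2-fold. CARD16, NLRP1, NLRP3, NLRC4 and AIM2 were named after their values were seen. Members and lists were chosen with earlier results of these data known. The number of arrays limits the precision. The other promoter windows with the motif are not reported here.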

Additional observations from a re-analysis of the deposited data

How the results depend on the processing

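With 1 array a group, no replicate could be left out, and no paired analysis was possible because the groups share no replicates. PMAIP1 was at or past 2-fold higher under 7 of 8 alternatives and CASP1 lower under 6 of the 7 that measured it. Both genes had 1 probe, so no filter and the median of probes repeat their main values by construction. The stricter filter does the same for PMAIP1. These settings could not have differed and add no support. The exception for both genes was use of the local background, where the ratios were 0.73 and −0.33. In that setting 2 members were past 2-fold higher (BIK at 2.69 and BCL2L1 at 1.39) and 2 lower (MLKL at −1.44 and BAX at −1.08), against 4.57% and 3.32% of all genes, and 16 of 35 members stayed within 0.24 of their main ratio. Beside BIK, with spots of 1191 (control) and 1132 (CDR1AS), the local background was 1170.4 and 224. The stricter filter, which asks for 2 times the limit on both arrays, left 21 members and 0 lower, because it removes CASP1. A limit of 1.5-fold, chosen after seeing the data, gave 2 lower. The median over members stayed between −0.06 and −0.03. Of the 35 members, 23 had one sign in all settings that measured them (11 higher, 12 lower). The same count was not made over all genes, and some settings repeat the main value for genes with 1 probe. One sign is not a sizeable difference: APAF1 (main ratio 0.01) and CASP14 (−0.02) are among the 23.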
